A study of Rattus norvegicus with 59 samples.

Results

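Pyruvate that enters the mitochondrion of a β-cell can be oxidised by the pyruvate dehydrogenase complex or carboxylated by pyruvate carboxylase, and the products of both meet in the TCA cycle. The malate-aspartate shuttle moves reducing equivalents from cytosolic NADH into the mitochondrion, and malic enzymes, glutamate dehydrogenase and the citrate exporters link the cycle to NADPH, amino acids and lipid synthesis. In β-cells, these routes couple glucose metabolism to insulin secretion. The genes described here are 33 symbols for the steps from pyruvate entry to the shuttle enzymes, and each was taken wherever its symbol stood in the gene column of the deposited table. Of these symbols, 32 were found in 33 of 18331 transcript entries, as Pdp1 has 2 entries, while Idh3b was not analysed here. The rule used the symbols and no measured value, but the list was written with earlier results of these data known.

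RNA came from the rat insulinoma line INS-1E, used as a β-cell model, grown in independent experiments according to the study. Cells in NG were kept for 72 h at 11.1 mM glucose (20 libraries), and those in HG for 72 h at 20 mM glucose (20 libraries). Cells in HG + drugs were also at 20 mM glucose for 72 h and for the last 48 h received a mixture of sodium salicylate (250 μM), exendin-4 (50 nM) and metformin (250 μM) (19 libraries, with replicate 16 not analysed here). As the drugs were given only as a mixture and only in HG, no value belongs to a single drug. Levels are FPKM, read fragments scaled by transcript length and by the mapped fragments of the library, and can be compared between genes because of the scaling by length. The spacing of the low FPKM values gave 6.95 to 10.28 M reads per library, with a median of 8.61 M for NG, 8.73 M for HG and 8.88 M for HG + drugs. Markers of β-cells were abundant and those of acinar, duct, endothelial and fibroblast cells were at or near 0, although the α-cell hormone gene Gcg had a mean of 947 FPKM in NG. The insulin genes Ins1 and Ins2 took 14.1% ± 1.87 of all FPKM in NG libraries, 9.41% ± 1.66 in those of HG and 11.1% ± 1.95 in those of HG + drugs (SD, n = 20, 20 and 19). Every FPKM is relative to its library's total, and both rescalings that were run, by median ratio and by quantiles, gave 12 of the genes raised and 3 lowered with HG as in the deposited scaling.

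Most of the pathway was well expressed in NG. An entry was tested where its mean across the 59 libraries reached 1 FPKM, which held for 32, and of these 28 had a mean above 10 FPKM in NG and 7 a mean above 100 FPKM (median 32.0 FPKM). Mdh1, the cytosolic malate dehydrogenase of the shuttle, was the highest at 288 ± 24.6 FPKM (SD, n = 20), above all but a few percent of the transcripts tested (percentile 97.4). It was followed by Suclg1, the subunit shared by both succinyl-CoA synthetases, at 189 ± 10.2 FPKM. Mitochondrial Mdh2 (176 ± 11.1 FPKM) and citrate synthase, Cs (166 ± 7.95 FPKM), came next, with ranges across libraries that overlapped with their neighbours in this order. The lowest tested were Me3, a mitochondrial NADP-linked malic enzyme, at 3.71 ± 0.488 FPKM and the phosphatase gene Pdp2 at 3.47 ± 0.530 FPKM, which overlapped each other. Pdk4, a pyruvate dehydrogenase kinase, was listed at 0 in all 59 libraries and could not be tested.

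**Figure D1:**
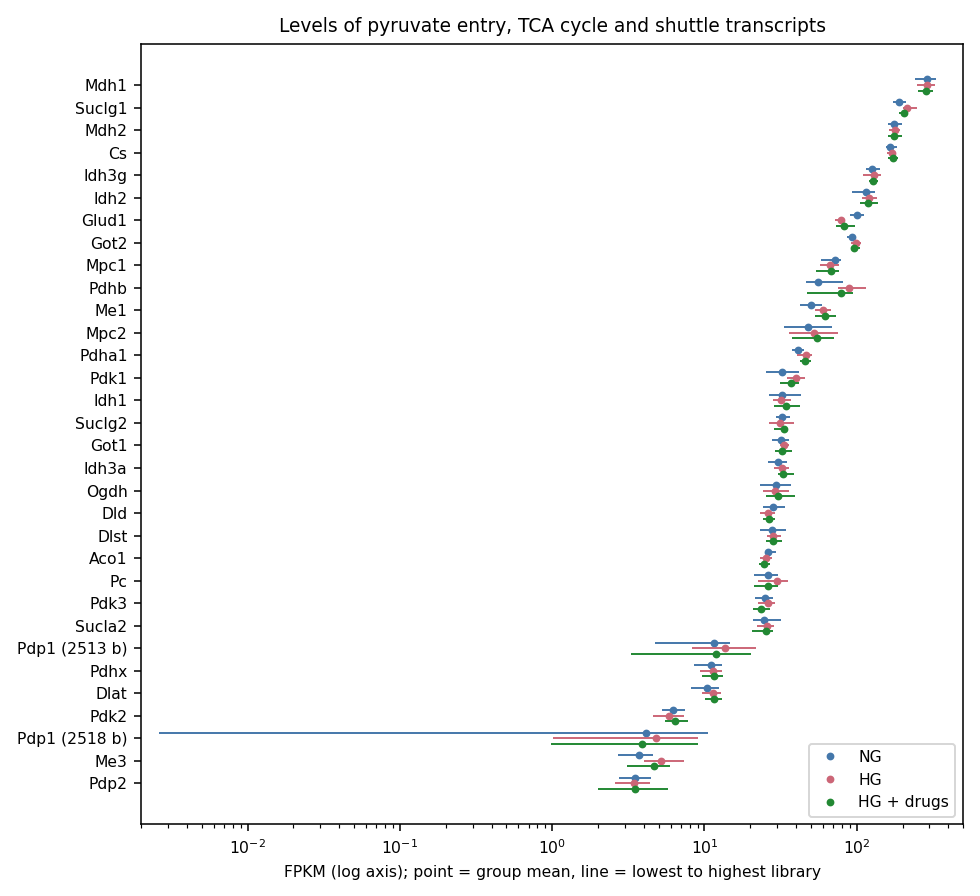
Mean FPKM (points, log axis) and the lowest to highest library (lines) of the 32 tested entries in NG, HG and HG + drugs, ordered by the mean in NG. Mdh1 stands at the top with 288 FPKM in NG and Pdp2 at the bottom with 3.47 FPKM, and the widest lines belong to the 2 entries of Pdp1, marked with their lengths in bases.

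With HG, all 4 anaplerotic and malic enzyme genes passed the test, while 7 of the 9 cycle enzymes did not. In limma on log2(FPKM + 1), with Benjamini-Hochberg adjustment over 10660 transcripts and a threshold of 0.05, 12 of the 32 entries rose, 3 fell and 17 did not pass compared to NG. This is 46.9% past the threshold against 40.1% of all transcripts tested. Raised entries were 37.5% of the genes against a background of 18.2%, and lowered ones 9.38% against 22.0%. The median log2 fold change was 0.06 over the genes and -0.02 over all transcripts. Among the 4 anaplerotic and malic enzyme genes 3 rose and 1 fell, and among the 5 genes of the pyruvate dehydrogenase complex 3 rose and 1 fell. Of the 9 cycle enzymes only Suclg1 and Idh3a passed, both upwards. None of the 3 NADP-linked and cytosolic genes Aco1, Idh1 and Idh2 did in limma (by unadjusted p under 0.05, Aco1 alone). With a replicate block in the model, Aco1 passed as lowered and Idh2 as raised. In bulk RNA, fewer cells of a kind and less RNA per cell cannot be told apart.

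Pdhb, which encodes the β subunit of the E1 component of pyruvate dehydrogenase, had the largest rise of the group. Its lowest, median and highest libraries were at 46.4, 52.9 and 80.7 FPKM in NG. The corresponding values were 75.7, 88.1 and 115 FPKM in HG and 46.9, 78.3 and 94.3 FPKM in HG + drugs. All 20 HG libraries lay above the NG median and 17 lay above the highest NG library, which was replicate 9, and replicate 9 was also the highest in HG. The mean rose from 55.5 ± 8.12 to 88.6 ± 8.58 FPKM (SD, n = 20 each), a log2 fold change of 0.67 (SE 0.06, limma adjusted p = 2.0e-14). With drugs the mean of Pdhb was 78.3 ± 12.7 FPKM (n = 19), a log2 fold change of -0.19 compared to HG (SE 0.06, limma adjusted p = 0.040). The call rested on single libraries, although the fold change stayed negative. Without replicate 1 of HG + drugs, the library at 46.9 FPKM, the log2 fold change was -0.15 (limma adjusted p = 0.079), and without replicate 9 of HG it was -0.17 (limma adjusted p = 0.067). Levels in HG + drugs remained above NG by 0.48 on the log2 scale (limma adjusted p = 4.8e-09).

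The partner subunit of Pdhb had a smaller fold change. Pdha1, the E1α subunit that carries the regulatory phosphorylation sites, ranged from 37.8 to 45.2 FPKM in NG (median 40.7), 40.2 to 50.5 FPKM in HG (median 46.3) and 42.2 to 50.3 FPKM in HG + drugs (median 46.1). It rose by 0.17 with HG (SE 0.02, limma adjusted p = 1.5e-08), and 14 of 20 HG libraries lay above the highest NG library. With drugs its log2 fold change compared to HG was -0.01 (95% interval -0.06 to 0.03, limma adjusted p = 0.80). The FPKM of Pdhb divided by that of Pdha1 in the same library averaged 1.35 ± 0.192 for NG, 1.91 ± 0.189 for HG and 1.71 ± 0.312 for HG + drugs, given as a description without a test. Dlat, the E2 acetyltransferase, ranged from 8.21 to 12.5 FPKM in NG (median 10.2), 9.63 to 12.8 FPKM in HG (median 11.3) and 10.0 to 13.1 FPKM in HG + drugs (median 11.5). It rose by 0.13 with HG (limma adjusted p = 0.0025), with 19 of 20 HG libraries above the NG median. Dld, the E3 dihydrolipoamide dehydrogenase that the complex shares with the 2-oxoglutarate dehydrogenase complex, ranged from 24.2 to 33.6 FPKM in NG (median 28.1), 23.2 to 29.3 FPKM in HG (median 26.3) and 24.2 to 28.9 FPKM in HG + drugs (median 26.5). It fell by 0.10 with HG (limma adjusted p = 0.010), with 17 of 20 HG libraries below the NG median. For Pdhx, the protein that binds E3 to the complex, the log2 fold change was 0.04 (95% interval -0.05 to 0.13).

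The promoter of Pdhb is shown because this gene rose most. Windows from 250 bases before to 50 bases after the gene start were taken from RefSeq (GRCr8, a later build than the rn5 used for the FPKM), and 29 of the 33 symbols had one. They were searched on both strands for 4 motifs. The E-box CACGTG, which is bound by helix-loop-helix factors such as USF and MYC, was present in 3 of the 29 windows (Pdhb, Ogdh and Pdk2), and in 6.42% of all 33469 promoters and 9.37% of the 7868 promoters of tested genes. Pdhb held 2 of them, spaced 89 bases apart from start to start, as at least 2 did in 0.520% of all promoters and 1.07% of those of tested genes. The E-boxes are in capitals in the following stretches, written on the strand of the gene.
Pdhb, E-box 186 to 181 bases before the start (chr15:19182593-19182618, plus strand): ttgcaagattCACGTGttgctcaagg
Pdhb, E-box 97 to 92 bases before the start (chr15:19182682-19182707, plus strand): tcagtcctagCACGTGagcagacagc
Ogdh, E-box 208 to 203 bases before the start (chr14:85363813-85363838, plus strand): ggaagcttctCACGTGtgccttctaa
Pdk2, E-box 143 to 138 bases before the start (chr10:80484040-80484065, minus strand): cgaggagagcCACGTGtcgaagcgca

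Of the genes with these E-boxes, only Pdhb passed the test with HG. Ogdh, the E1 component of the 2-oxoglutarate dehydrogenase complex, had a log2 fold change of -0.03 (95% interval -0.14 to 0.07) and Pdk2 one of -0.09 (95% interval -0.18 to -0.01, limma adjusted p = 0.085). The CRE motif TGACGTCA, which CREB binds, is shown because exendin-4 acts through cyclic AMP. It was found in 2 of the 29 windows, against 1.83% of all promoters and 3.42% of those of tested genes, and stands in capitals here.
Mdh2, CRE 117 to 110 bases before the start (chr12:26543941-26543968, minus strand): tagggaggcgTGACGTCAggcttttccc
Ogdh, CRE 99 to 92 bases before the start (chr14:85363922-85363949, plus strand): cccaattctgTGACGTCAtgttacgccc
With drugs, neither passed the test compared to HG, with log2 fold changes of -0.02 for Mdh2 (95% interval -0.07 to 0.04) and 0.08 for Ogdh (95% interval -0.02 to 0.18). The NRF1 motif, searched as a core of 10 letters with 1 free position, was in 2 windows (Dld and Sucla2), against 4.25% of all promoters and 10.8% of those of tested genes, and the ERR motif TCAAGGTCA was in none, against 0.433% and 0.178%. A match is a string of letters and shows no binding.

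Among the kinases that switch off the complex by phosphorylating E1α, Pdk1 and Pdk3 rose with HG. Pdk1 ranged from 25.4 to 41.5 FPKM in NG (median 32.0), 34.8 to 46.0 FPKM in HG (median 38.9) and 31.5 to 41.6 FPKM in HG + drugs (median 36.7). All HG libraries were above the NG median, although the ranges overlapped and only 7 of 20 exceeded the highest NG library. The rise was 0.29 (SE 0.04, limma adjusted p = 1.0e-07). With drugs the log2 fold change was -0.11 compared to HG (95% interval -0.19 to -0.02, limma adjusted p = 0.12).

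Pdk3 had a small rise with HG and a larger fall with drugs. It ranged from 21.6 to 28.3 FPKM in NG (median 25.0), 22.5 to 29.1 FPKM in HG (median 26.0) and 21.0 to 27.0 FPKM in HG + drugs (median 22.8). The rise with HG was 0.08 (SE 0.03, limma adjusted p = 0.045) and was lost where low transcripts were not filtered out (limma adjusted p = 0.057) and where only replicate numbers with all 3 groups were used (limma adjusted p = 0.063). With drugs Pdk3 fell by 0.17 compared to HG (SE 0.03, limma adjusted p = 0.00057), 15 of 19 libraries were below the HG median and 7 were below the lowest HG library. The groups nonetheless overlapped. As a share of the summed FPKM of the kinase genes, Pdk1 made up 50.9% ± 3.29 for NG, 55.2% ± 2.05 for HG and 55.2% ± 2.34 for HG + drugs, and Pdk3 was 39.2% ± 3.26, 36.7% ± 1.79 and 35.1% ± 2.55.

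Pdk2 and the phosphatases that reactivate the complex did not pass in limma by entry. For Pdk2 the log2 fold change with drugs was 0.13 compared to HG (95% interval 0.04 to 0.22, limma adjusted p = 0.056). The 2 transcripts of Pdp1 had wide intervals with HG, -0.04 to 0.47 for the entry of 2513 bases and -0.18 to 0.65 for that of 2518 bases. One of the entries fell to 0.00261 FPKM in a library of NG. Cufflinks divides reads that transcripts share, but its part in these wide intervals was not tested. The summed FPKM of the 2 entries was steadier, at 15.8 ± 1.78 for NG, 18.4 ± 2.39 for HG and 15.9 ± 2.56 for HG + drugs. With FPKM summed per symbol, Pdp1 rose by 0.21 with HG (limma adjusted p = 0.0018) and fell by 0.20 with drugs (limma adjusted p = 0.013). Pdp2 had log2 fold changes of 0.00 with HG (95% interval -0.14 to 0.13) and -0.01 with drugs (95% interval -0.15 to 0.13).

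Glud1, the mitochondrial glutamate dehydrogenase that links glutamate to 2-oxoglutarate, had the largest fall of the group with HG. Its lowest, median and highest libraries were at 90.8, 102 and 111 FPKM in NG and at 71.6, 79.0 and 84.3 FPKM in HG. All 20 HG libraries were below the lowest NG library, so the groups did not overlap. The mean fell from 100.3 ± 6.32 to 78.7 ± 3.60 FPKM (SD, n = 20 each), a log2 fold change of -0.35 (SE 0.03, limma adjusted p = 5.8e-16). In HG + drugs it ranged from 72.9 to 97.9 FPKM (median 83.0), and 18 of 19 libraries were still below the lowest of NG. The log2 fold change with drugs was 0.07 compared to HG (95% interval 0.01 to 0.13, limma adjusted p = 0.11) and -0.27 compared to NG (limma adjusted p = 1.6e-11).

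Both malic enzyme genes of the list rose, while Me2, a mitochondrial malic enzyme that is not on it, fell by 0.12 (limma adjusted p = 0.0025) from a mean of 23.9 FPKM in NG to 21.9 FPKM in HG, with 19 of 20 HG libraries below the NG median. Me1, the cytosolic enzyme that yields NADPH, ranged from 42.5 to 59.1 FPKM in NG (median 49.8), 53.1 to 68.1 FPKM in HG (median 60.1) and 53.3 to 72.6 FPKM in HG + drugs (median 60.5). All HG libraries were above the NG median. It rose by 0.26 with HG (SE 0.03, limma adjusted p = 1.4e-09), and with drugs the log2 fold change was 0.03 compared to HG (95% interval -0.04 to 0.09). Me3 ranged from 2.70 to 4.60 FPKM in NG (median 3.57), 4.02 to 7.39 FPKM in HG (median 5.29) and 3.10 to 5.92 FPKM in HG + drugs (median 4.66). It rose by 0.39 with HG (SE 0.06, limma adjusted p = 2.1e-08), and 16 of 20 HG libraries exceeded the highest of NG. With drugs the log2 fold change of Me3 was -0.12 compared to HG (95% interval -0.24 to -0.01, limma adjusted p = 0.16). At about 56.3 reads per NG library, Me3 was measured much less precisely than Me1 at about 1211 reads.

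Pc, the pyruvate carboxylase that makes oxaloacetate, rose with HG and fell with drugs. Its lowest, median and highest libraries were at 21.2, 26.2 and 30.2 FPKM in NG, at 22.4, 30.9 and 35.1 FPKM in HG, and at 21.0, 26.2 and 30.6 FPKM in HG + drugs. In HG, 13 of 20 libraries were above the highest NG library, and all 19 libraries of HG + drugs were below the HG median, although the ranges overlapped. The rise with HG was 0.20 (SE 0.05, limma adjusted p = 0.00048). Compared to HG, Pc fell by 0.20 with drugs (SE 0.05, limma adjusted p = 0.0053), and the log2 fold change of HG + drugs compared to NG was 0.01 (95% interval -0.09 to 0.11). Replicate 13 went the other way, as it held the lowest HG value (22.4 FPKM) and the highest HG + drugs value (30.6 FPKM). Pc remained past the threshold in both comparisons without these libraries.

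**Figure D2:**
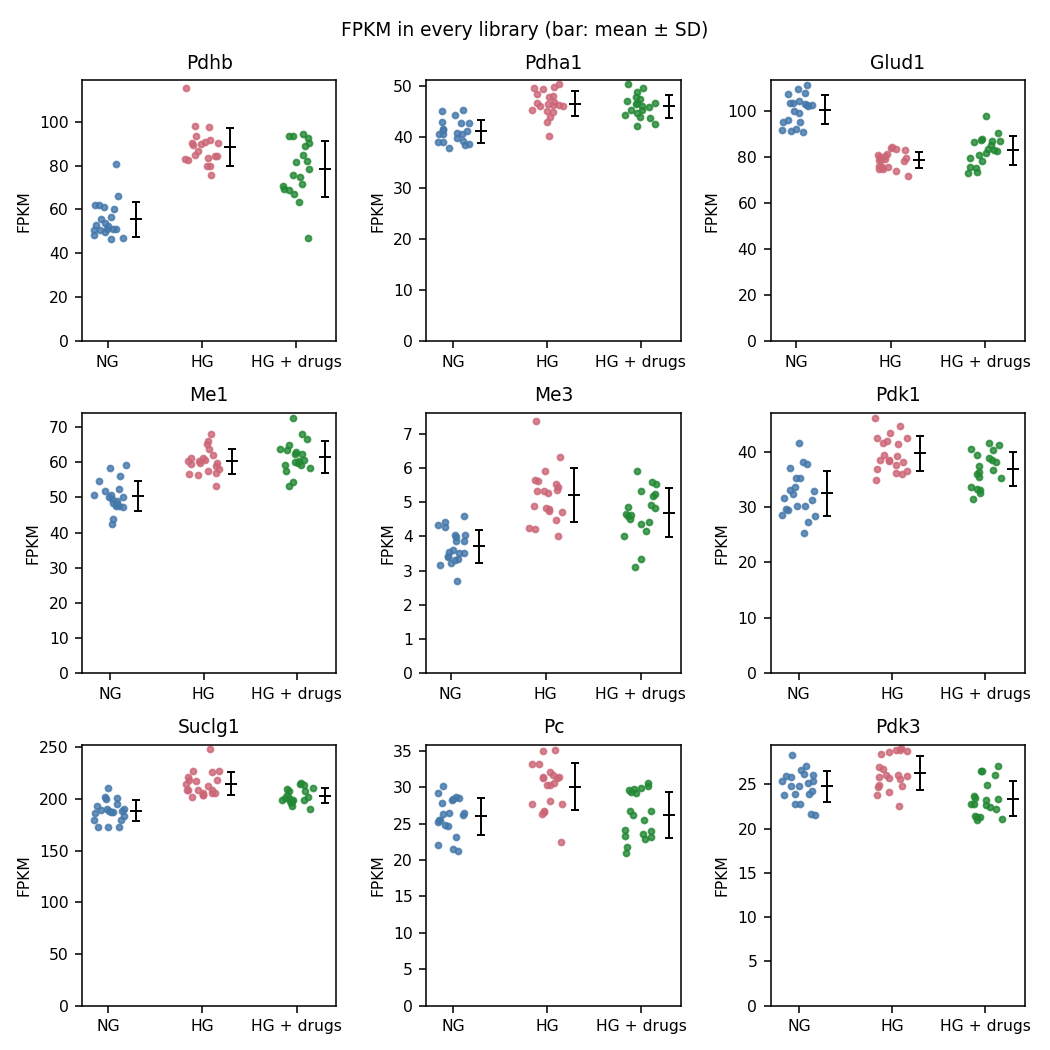
FPKM in each library (points, linear axis from 0) of 9 genes by group (NG and HG n = 20, HG + drugs n = 19), with the mean ± SD as bars. All HG points of Glud1 lie below the NG points, and Pdhb shows 1 low library in HG + drugs at 46.9 FPKM and 1 high library in HG at 115 FPKM.

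The pyruvate carrier has 2 subunits that form a single transporter, and only the transcript of Mpc1 passed the test with HG. Mpc1 ranged from 58.3 to 78.5 FPKM in NG (median 73.3), 57.4 to 76.1 FPKM in HG (median 67.4) and 53.8 to 76.8 FPKM in HG + drugs (median 69.1). It fell by 0.10 with HG (SE 0.04, limma adjusted p = 0.019), and 18 of 20 HG libraries were below the NG median, with ranges that overlapped almost fully. Mpc2 ranged from 33.2 to 68.4 FPKM in NG (median 46.7), 35.7 to 74.9 FPKM in HG (median 52.1) and 37.3 to 71.4 FPKM in HG + drugs (median 53.0). Its log2 fold change with HG was 0.15 (95% interval -0.01 to 0.31, limma adjusted p = 0.14). The transcript of Mpc2 is only 384 bases long and was counted in about 74.9 reads per library. Counting alone would give a coefficient of variation of 11.6%, and 20.8% was measured in NG.

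In the cycle itself, most enzymes differed by little between groups. Suclg1 ranged from 172 to 211 FPKM in NG (median 189), 202 to 249 FPKM in HG (median 211) and 190.1 to 216 FPKM in HG + drugs (median 201). All HG libraries were above the NG median, 10 were above the highest NG library, and 11 of 19 libraries of HG + drugs were below the lowest HG library. It rose by 0.19 with HG (SE 0.02, limma adjusted p = 3.8e-10) and fell by 0.08 with drugs (SE 0.02, limma adjusted p = 0.019), and HG + drugs stayed 0.11 above NG (limma adjusted p = 0.00020). Idh3a, the catalytic subunit of the NAD-linked isocitrate dehydrogenase, ranged from 26.0 to 34.8 FPKM in NG (median 29.9), 28.8 to 35.9 FPKM in HG (median 31.9) and 30.5 to 38.7 FPKM in HG + drugs (median 32.6). It rose by 0.09 with HG (limma adjusted p = 0.015), with 17 of 20 HG libraries above the NG median.

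For the other cycle genes the intervals bound the change with HG. That of Cs was -0.02 to 0.07, that of Idh3g, a regulatory subunit of the same dehydrogenase, was -0.01 to 0.09, and that of Mdh2 was -0.04 to 0.07. Dlst, the E2 of the 2-oxoglutarate dehydrogenase complex, had an interval of -0.03 to 0.11. Sucla2, the subunit of the ADP-forming succinyl-CoA synthetase, ranged from 20.9 to 31.9 FPKM in NG (median 24.4), 22.2 to 28.6 FPKM in HG (median 26.3) and 20.4 to 28.3 FPKM in HG + drugs (median 25.6), with an interval of 0.00 to 0.15. Suclg2, that of the GDP-forming enzyme, ranged from 29.4 to 36.3 FPKM in NG (median 31.8), 26.7 to 39.0 FPKM in HG (median 31.3) and 28.7 to 35.4 FPKM in HG + drugs (median 34.0), with an interval of -0.10 to 0.03. For both genes the ranges of the groups overlapped. Among the NADP-linked and cytosolic genes, the intervals were -0.10 to -0.01 for the cytosolic aconitase Aco1 (limma adjusted p = 0.056), -0.11 to 0.08 for cytosolic Idh1 and -0.01 to 0.12 for mitochondrial Idh2.

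Of the shuttle genes, both aspartate aminotransferases rose slightly with HG. Got2, the mitochondrial enzyme, ranged from 86.1 to 97.9 FPKM in NG (median 93.3), 92.0 to 107 FPKM in HG (median 98.5) and 91.1 to 105 FPKM in HG + drugs (median 95.1). It had the smallest relative spread in NG (3.32%), and its rise of 0.08 (SE 0.02, limma adjusted p = 0.00033) was seen in 18 of 20 HG libraries set against the NG median. Cytosolic Got1 rose by 0.06 (limma adjusted p = 0.041), a call that was lost without replicate 9 of NG (limma adjusted p = 0.077) and with only the replicate numbers of all 3 groups (limma adjusted p = 0.051). For Mdh1 the log2 fold change was 0.00 (95% interval -0.06 to 0.07).

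Fewer entries passed with drugs than with HG, as was also the case over all transcripts. Compared to HG, 4 of the 32 entries fell (Pdhb, Pdk3, Pc and Suclg1), 28 did not pass and 0 rose in limma, that is 12.5% past the threshold against 8.66% of all transcripts tested. Over all transcripts, 4.17% rose and 4.48% fell. Without adjustment, Pdk2, Glud1, Suclg2 and Idh1 had positive changes at a p under 0.05, and among the uncalled genes Pdk1 and Me3 had negative ones. With a replicate block in the model, Glud1, Pdk2 and Suclg2 passed as raised and Pdk1 as lowered. The median log2 fold change was -0.01 over the genes and 0.00 over all transcripts. Each of the 4 genes that fell had also risen with HG, but the HG libraries enter both comparisons, which ties their values together. Compared to NG, 9 entries were higher in HG + drugs and 2 were lower (Glud1 and Aco1), 34.4% against 27.3% of all transcripts. The 9 were Pdhb, Pdha1, Dlat, Pdk1, Me1, Me3, Suclg1, Idh3a and Got2. Mpc2 was close to the threshold in this comparison (0.20, limma adjusted p = 0.052) and passed it under both rescalings (limma adjusted p = 0.042 and 0.045).

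Ratios within a library do not depend on how the library was scaled, and 8 pairs were compared in the 3 comparisons. Differences in log2 ratio were tested with two-sided permutation tests of 100000 resamples, with Benjamini-Hochberg adjustment over the 24 tests. The ratio of Mpc2 to Mpc1 had a geometric mean of 0.652 for NG, 0.778 for HG and 0.797 for HG + drugs. It was higher than in NG by 0.25 in HG (adjusted permutation p = 0.0403, above the NG median in 18 of 20 libraries) and by 0.29 in HG + drugs (adjusted permutation p = 0.0403). The ratio of Me3 to Me1 was 0.0752 in NG and 0.0871 in HG, a difference of 0.21 (adjusted permutation p = 0.0403). That of Suclg2 to Sucla2 was 1.31 in NG and 1.21 in HG, a difference of -0.11 (adjusted permutation p = 0.0403), with 4 of 20 HG libraries above the NG median.

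The ratio of Pc to Pdha1, which takes only 1 subunit of E1 for dehydrogenation, had a geometric mean of 0.631 for NG, 0.645 for HG and 0.567 for HG + drugs. With HG the difference was 0.03 (95% interval -0.09 to 0.15). With drugs it was -0.19 compared to HG (adjusted permutation p = 0.0403), and 3 of 19 libraries were above the HG median. Pdhb, the other E1 subunit, rose by 0.67 with HG, where Pc rose by 0.20. With drugs Pdhb fell by 0.19 compared to HG and Pc by 0.20. The ratio of Pc to Pdhb was not tested. Ratios between compartments were steady, with 95% intervals for the change with HG of -0.05 to 0.07 for Mdh2 to Mdh1 and -0.04 to 0.07 for Got2 to Got1. That of Idh2 to Idh1 was -0.08 to 0.23, and that of Pdk1 to the summed Pdp1 was -0.05 to 0.21. All 5 calls lay close to the threshold, and each was lost with a pseudocount of 1 FPKM in place of 0.1 FPKM. With 1 FPKM, the unadjusted permutation p of Me3 to Me1 with HG rose from 0.00524 to 0.0354. For the other calls it changed little, as from 0.0084 to 0.00891 for Suclg2 to Sucla2 with HG. All 5 calls were kept with a replicate block, where signs were permuted within replicate numbers (adjusted permutation p from 0.0263 to 0.0459).

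**Figure D3:**
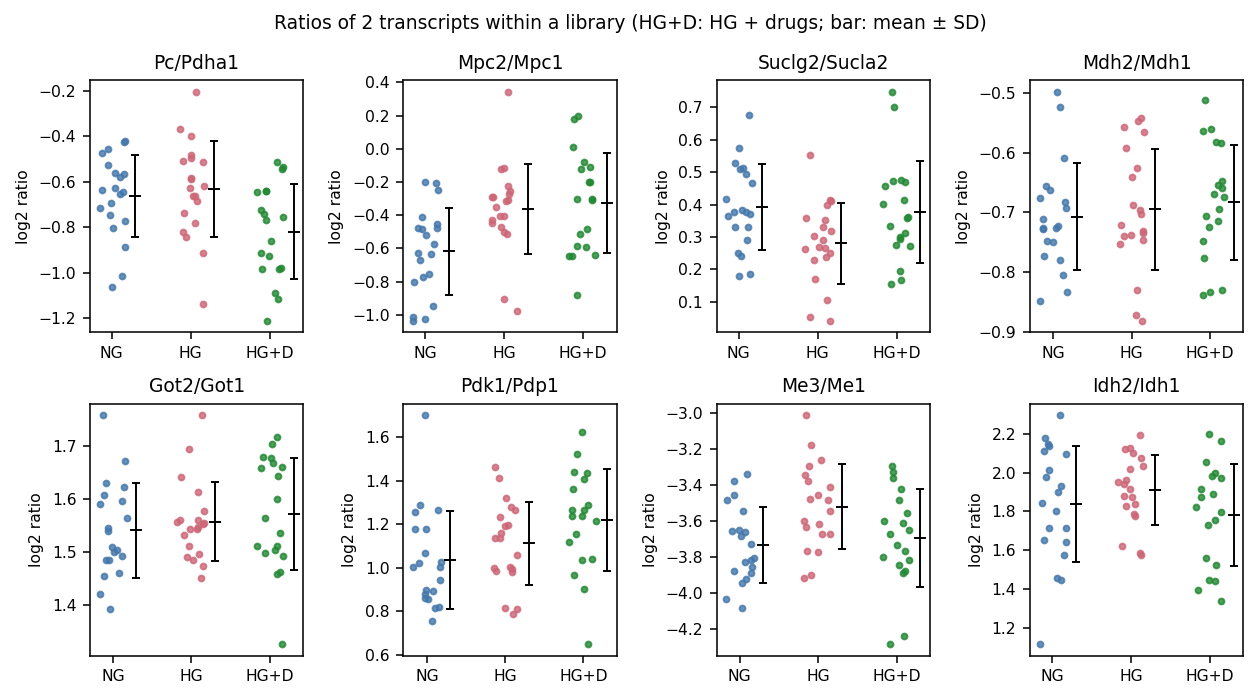
Log2 ratios of 8 pairs of genes in each library (points) by group, with the mean ± SD as bars, on axes that do not start at 0. Mpc2/Mpc1 is higher in HG and HG + drugs than in NG, Pc/Pdha1 is lower in HG + drugs than in HG, and the groups overlap in every pair.

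Libraries were sequenced in batches that the labels do not identify, so the comparison with HG was repeated within 4 sets of 15 consecutive sample numbers, which are not known to be those batches. Of the 15 entries past the threshold, 14 had the same direction in all 4 sets. The exception was Pdk3, at 0.12, -0.03, 0.05 and 0.18. Pdhb was at 0.72, 0.64, 0.65 and 0.68, and Glud1 at -0.36, -0.33, -0.33 and -0.36. With drugs, all 4 genes had a negative log2 fold change in each set, but that of Pc was -0.31, -0.27, -0.00069 and -0.17, and that of Pdhb was -0.34, -0.10, -0.16 and -0.16. The sets are parts of the libraries that gave the calls, so a shared direction is not independent of the calls. Within set 3 or set 4 alone, 0 of 10660 transcripts passed with drugs compared to HG.

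**Figure D4:**
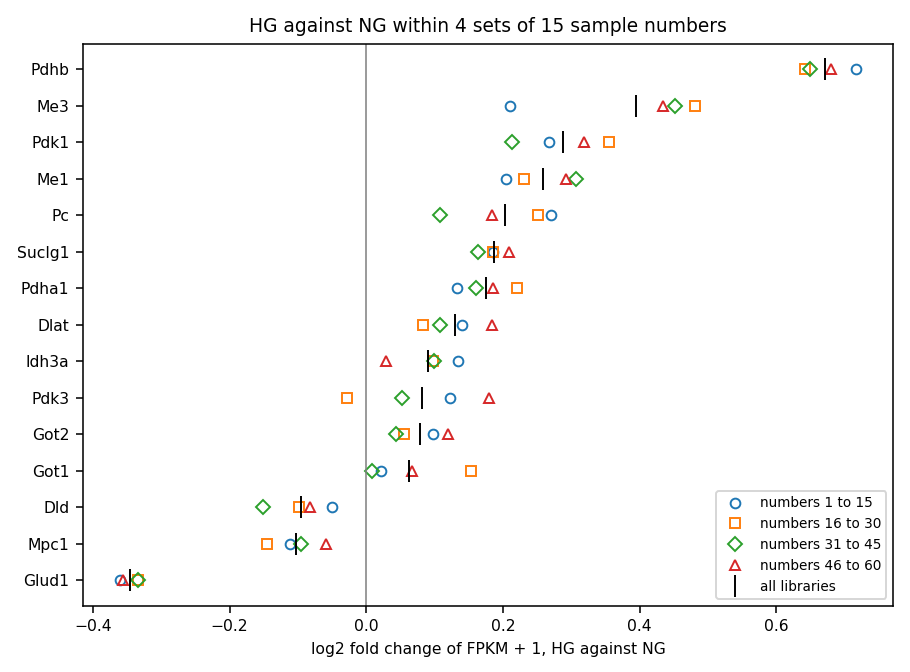
Log2 fold changes in HG against NG of the 15 entries past the threshold, within each of 4 sets of 15 consecutive sample numbers (open symbols) and over all libraries (vertical marks). The symbols of Pdhb and Glud1 lie close together, and 1 symbol of Pdk3 lies at -0.03 on the other side of 0.

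Genes of the same routes that are not on the list were counted from 35 further symbols, with 30 entries tested. With HG, 12 rose and 4 fell (53.3% against 40.1% of all transcripts), where Slc25a22 counts among the raised with 2 identical entries, and with drugs 1 rose and 3 fell compared to HG (13.3% against 8.66%). Acly, the ATP citrate lyase that splits exported citrate for lipid synthesis, had the highest mean in NG of these, with means of 565, 843 and 724 FPKM in NG, HG and HG + drugs for its main entry. It rose by 0.58 with HG (limma adjusted p = 2.0e-19) and fell by 0.23 with drugs (limma adjusted p = 4.9e-05), and its other entry rose by 0.56 and fell by 0.23. The citrate carrier Slc25a1 fell by 0.11 with drugs (limma adjusted p = 0.0080). The dicarboxylate carrier Slc25a10 rose by 0.40 with HG (limma adjusted p = 2.2e-11), and Gpd1, the cytosolic enzyme of the glycerol phosphate shuttle, rose by 0.74 (limma adjusted p = 4.3e-07). Ldha, the lactate dehydrogenase subunit that β-cells largely lack, had a mean of 0.0334 FPKM in NG.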

How the data were processed

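RNA of INS-1E cells was sequenced by the authors with a TruSeq kit for polyadenylated RNA. According to the methods and the submitters' processing notes, reads were checked in FastQC 1.0.0, aligned to rat build rn5 by TopHat and Bowtie, and quantified per RefSeq transcript by Cufflinks. The authors deposited the FPKM of each library, the only values used here. FPKM scales reads by transcript length and library total, so a change in abundant transcripts shifts the others.

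The members and lists were chosen with earlier results of these data known. From the deposited FPKM, 10660 transcripts averaging 1 FPKM or more went into limma 3.58.1 (R 4.3.3, trend and robust) on log2(FPKM + 1) as a single model of the 3 groups. On this scale, changes of low transcripts are understated. The model did not use replicate numbers. Reads per library were derived from low FPKM values, of which 86.3% were whole within 0.05 reads. Intervals are 95%. Ratios used a pseudocount of 0.1 FPKM. Python 3.11.15, numpy 2.4.6, pandas 2.3.3 and matplotlib 3.10.9 were used. Both procedures were tested on simulated data.

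Library values were given for the 12 largest changes past the threshold with HG, for all past it with drugs, and for members of called ratios. Of the other pathway genes, up to 6 with the smallest adjusted p with HG and up to 4 with drugs were named, except an item that is not reported here, and Ldha and Me2 were named in addition, after their values were seen. The ratio of Idh3b to Idh3a was planned but Idh3b was not analysed here. Alternatives were a pseudocount of 0.1, no filter, a minimum of 5 FPKM, median-ratio scaling, quantile normalization, FPKM summed per symbol, a replicate block, a term for sets of 15 sample numbers, each such set alone, only numbers with all 3 groups, only the groups compared, and the exclusion of number 13 from HG and HG + drugs. The exclusions of HG + drugs replicate 1, HG replicate 9 and NG replicate 9 were added after seeing the data.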

Additional observations from a re-analysis of the deposited data

How the results depend on the processing

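With HG, every gene of the list past the threshold kept its direction under 11 planned and 3 added alternatives that used libraries of all sets, and only Pdk3 and Got1 lost a call (Me3 could not be tested with a minimum of 5 FPKM). With drugs, Pdhb lost its call without a filter on low values (adjusted p = 0.056) and without either of 2 single libraries, while Pc, Pdk3 and Suclg1 kept theirs. Within set 2 of 15 sample numbers alone, Pdk3 with HG was at -0.028. Each set has at most 5 libraries a group. The entries called over all libraries were 15 with HG, 4 with drugs and 11 in HG + drugs compared to NG. Taken in each of the 4 sets, these calls were lost in 79 cases. The number of genes raised by drugs compared to HG was 0, but 1 with sets of 15 sample numbers as a term (Pdk2), 1 without number 13 (Glud1) and 1 without HG replicate 9 (Pdk2). Of the other pathway genes, 4 were lower in HG + drugs than in NG, and 2 under median-ratio scaling, quantile normalization and a fit of only the groups compared. With a pseudocount of 1 FPKM, the ratio differences were -0.18 for Pc to Pdha1 with drugs (adjusted permutation p = 0.0535), 0.25 with HG and 0.28 with HG + drugs compared to NG for Mpc2 to Mpc1 (both 0.053), -0.11 for Suclg2 to Sucla2 (0.0535) and 0.14 for Me3 to Me1 (0.104). Without number 13, all 5 ratio calls were kept (adjusted permutation p from 0.0185 to 0.0475). The ratios of Pc to Pdha1 (-0.17) and Pdk1 to Pdp1 (0.19) then also passed in HG + drugs compared to NG.

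Neither the labels nor the methods say outright that a replicate number marks 1 of the independent experiments, and the main tests did not use it. Libraries with the same replicate number do have consecutive sample numbers. The study also shows individual experiments as lines in its plots of insulin secretion and apoptosis, so the libraries may be paired by number. The deviations of same-numbered libraries correlated by 0.139 on average over 58 pairs (-0.0907 to 0.366), with 38 over 0.1. With the replicate block, 5 genes of the list were lowered with HG (3 without it, joined by Aco1 and Pdk2). Idh2 joined those raised with HG (limma adjusted p = 0.033). The block also added calls over all 10660 transcripts, where 2411 rose and 3024 fell with HG (1936 and 2342 without it). Under the block 3 genes of the list were raised with drugs compared to HG (0 without it), namely Glud1, Pdk2 and Suclg2. Pdk1 joined the lowered ones (limma adjusted p = 0.019). In HG + drugs, 5 genes of the list were lower than in NG (2 without it, joined by Dld, Mpc1 and Pdk3). Of all transcripts, 2267 were lower in that comparison (1557 without the block). Of the other pathway genes 6 were lowered with drugs under the block (3 without it), and over all transcripts drugs raised 1015 and lowered 1081 (445 and 478 without it). With the block, the ratios of Pc to Pdha1 (-0.15) and Pdk1 to Pdp1 (0.19) also passed in HG + drugs compared to NG. The closest library of another group had the same number for 27 of 59 libraries, although few libraries of the other groups share a number. Same-numbered libraries thus tended to be alike, which the main tests left out. In HG + drugs compared to NG, Mpc2 passed as raised under 8 alternatives and Cs under 3. As lowered, Mpc1 and Pdk3 passed under 3 alternatives each and Dld under 1. Depth limits Me3, Pdp2, Mpc2 and the Pdp1 entry of 2518 bases, each counted in under 100 reads per library.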
